A study of Homo sapiens with 2 samples.

Results

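Genes of apolipoproteins, lipoprotein uptake, cholesterol synthesis and fatty acid metabolism were examined for PHF8 occupancy in RKO cells, a human line established from a colon carcinoma. The list held 57 genes, chosen by name for these roles, out of 20037 protein-coding genes with a RefSeq transcript (GRCh38.p14). A gene counted as occupied when the midpoint of a PHF8 peak lay within 1 kb of the start or the end of the gene. The peaks came from chromatin immunoprecipitation followed by sequencing (ChIP-seq) with an antibody to PHF8, 1 library for each of 2 conditions: RKO cells transfected with a vector, and RKO cells transfected with a plasmid that overexpresses APOC2. The parental line and the antibody lot were the same in both conditions, and the series asked which PHF8 target sites APOC2 regulates. With 1 library per condition no difference could be set against replicate spread, so all comparisons describe these libraries and no p-value was computed. The tables do not measure transcripts, so neither the overexpression of APOC2 nor the identity of the cell line was checked against expression.

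PHF8 is a histone demethylase that binds a methyl mark of active promoters through its PHD finger and removes methyl marks linked to repression. APOC2 is a secreted apolipoprotein that activates lipoprotein lipase, the enzyme that frees fatty acids from circulating triglyceride. Cells obtain sterols by taking up lipoproteins or by making cholesterol from acetyl-CoA through the mevalonate pathway. That pathway is switched on when the sensor SCAP carries the SREBP transcription factors out of the endoplasmic reticulum, and the INSIG proteins hold SCAP back when sterol is plentiful. Fatty acids are built by ACACA and FASN, activated by the ACSL ligases, carried into mitochondria by the CPT enzymes and oxidised there. Most apolipoprotein genes are known for their expression in liver and intestine, whereas many enzymes of sterol synthesis are used by nearly every cell.

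The bases before the gene starts are shown first, because the occupied and unoccupied genes differed in their content of CpG, a C followed by a G. The RefSeq table of promoters (GRCh38.p14) held 46 of the 57 genes. Each line gives the 250 bases before an annotated start, 5′ to 3′ in the direction of the gene, with every CpG in capitals.

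MVD, chr16:88663092-88663341 (- strand): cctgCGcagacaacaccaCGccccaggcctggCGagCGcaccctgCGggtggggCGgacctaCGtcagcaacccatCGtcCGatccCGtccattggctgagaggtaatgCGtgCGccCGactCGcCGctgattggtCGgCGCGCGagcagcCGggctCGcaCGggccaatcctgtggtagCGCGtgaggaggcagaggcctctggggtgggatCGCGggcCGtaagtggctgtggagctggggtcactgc

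CYP51A1, chr7:92134478-92134727 (- strand): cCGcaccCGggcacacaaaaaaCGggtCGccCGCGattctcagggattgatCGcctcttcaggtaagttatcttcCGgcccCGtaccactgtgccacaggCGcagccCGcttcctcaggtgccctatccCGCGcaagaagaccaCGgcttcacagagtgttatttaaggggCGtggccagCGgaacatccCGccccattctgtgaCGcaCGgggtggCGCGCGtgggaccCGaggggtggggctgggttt

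HMGCS1, chr5:43313413-43313662 (- strand): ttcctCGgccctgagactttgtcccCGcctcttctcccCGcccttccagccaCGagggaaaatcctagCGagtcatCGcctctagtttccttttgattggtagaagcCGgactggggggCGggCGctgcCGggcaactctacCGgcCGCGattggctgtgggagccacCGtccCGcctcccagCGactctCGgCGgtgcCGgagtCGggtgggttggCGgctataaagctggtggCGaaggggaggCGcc

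ACSL1, chr4:184825969-184826218 (- strand): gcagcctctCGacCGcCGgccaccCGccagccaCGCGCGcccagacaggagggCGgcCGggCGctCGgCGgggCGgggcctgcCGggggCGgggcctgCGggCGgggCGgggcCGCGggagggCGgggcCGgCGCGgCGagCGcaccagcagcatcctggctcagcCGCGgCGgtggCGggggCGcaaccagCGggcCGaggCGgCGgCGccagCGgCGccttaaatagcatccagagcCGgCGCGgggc

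INSIG1, chr7:155297628-155297877 (+ strand): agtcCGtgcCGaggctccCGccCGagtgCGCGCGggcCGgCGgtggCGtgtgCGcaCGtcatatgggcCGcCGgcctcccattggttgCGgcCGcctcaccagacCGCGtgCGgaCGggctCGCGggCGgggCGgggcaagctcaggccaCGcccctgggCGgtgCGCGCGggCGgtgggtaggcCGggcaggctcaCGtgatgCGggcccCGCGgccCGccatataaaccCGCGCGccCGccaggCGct

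APOC2, chr19:44945801-44946050 (+ strand): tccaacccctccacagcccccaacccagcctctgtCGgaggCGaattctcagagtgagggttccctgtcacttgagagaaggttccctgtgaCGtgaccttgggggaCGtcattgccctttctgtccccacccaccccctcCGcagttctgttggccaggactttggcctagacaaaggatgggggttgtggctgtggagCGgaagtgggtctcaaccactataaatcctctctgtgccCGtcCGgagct

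APOA2, chr1:161223629-161223878 (- strand): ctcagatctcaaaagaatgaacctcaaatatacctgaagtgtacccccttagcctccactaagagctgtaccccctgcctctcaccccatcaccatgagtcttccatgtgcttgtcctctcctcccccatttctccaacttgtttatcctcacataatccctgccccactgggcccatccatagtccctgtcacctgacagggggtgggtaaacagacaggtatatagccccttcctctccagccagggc

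MVD and CYP51A1, shown because they had peaks in both tables, held 27 and 23 CpG. HMGCS1 and ACSL1 had the highest fold enrichments among the genes with a peak in the APOC2 table alone, and held 23 and 41. INSIG1 held 41 CpG but had no peak in either table, so a CpG-rich start did not always come with a peak. APOC2 and APOA2, which had no peak, held 8 and 0. The unoccupied lipid genes in the promoter table had a median of 16, and 0 was their lowest count.

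With APOC2 overexpression, 16 of the 57 lipid genes were occupied (28.1%, 95% Wilson interval 18.1 to 40.8%), where 23.8% of all protein-coding genes were. With the vector, 5 were occupied (8.77%, 3.81 to 18.9%), beside 5.95% of protein-coding genes. All 5 were also occupied in the APOC2 table, which left 11 genes with a peak in the APOC2 table alone (19.3%, 11.1 to 31.3%) and 0 with a peak in the vector table alone (0 to 6.31%). The shares over protein-coding genes were 5.84% for both tables, 18% for the APOC2 table alone and 0.105% for the vector table alone. Each of these 5 background shares lay within the interval of the lipid genes, so no difference between the lipid genes as a list and coding genes in general was detectable with 57 genes. Another count kept only the 4015 peaks of highest fold enrichment from each table. By it, 5 lipid genes were occupied with vector (8.77%) and 6 with APOC2 (10.5%), beside 5.95% and 8.84% of coding genes. This cut removes peaks from the APOC2 table only, so its count could only fall. The reason for the longer list of peaks in that table was not tested.

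The tables listed 4015 peaks for the vector and 8928 for the APOC2 library. Read totals were not given. If a single control served both conditions, the step sizes of their values put the APOC2 library at 0.824 times the depth of the vector library. A gene without a listed peak may still carry PHF8 below the threshold of the caller. The pileup is the number of fragments over the summit, multiplied in the vector table by 0.98953. At the strongest peak of each coding gene occupied in the vector table, the lowest pileup was 9.9 and the median 28.7. Intervals on pileups and shares cover counting error only, since fragments carried no molecular identifiers and genes are not replicates.

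**Figure D1:**
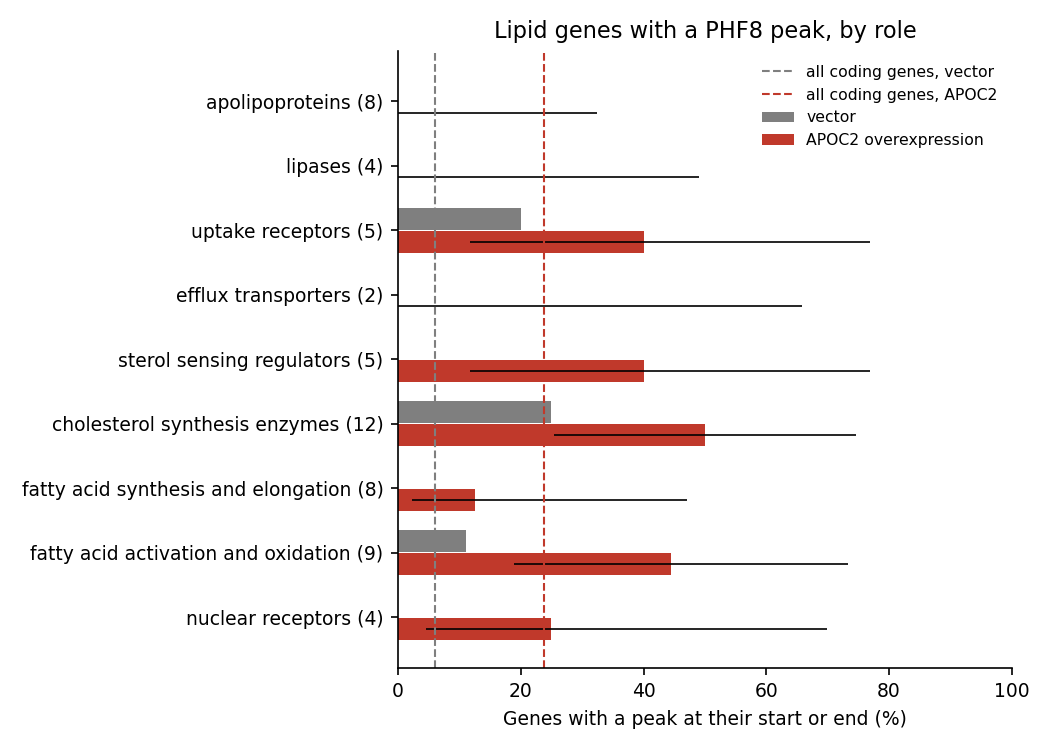
Share of lipid genes with a PHF8 peak within 1 kb of their start or end, by role, with the number of genes in brackets. Grey bars are the vector and red bars the APOC2 table, black lines are 95% Wilson intervals of the APOC2 share, and dashed lines are the shares over all protein-coding genes (5.95% and 23.8%). Cholesterol synthesis enzymes, a group picked with earlier results known, had the highest share in each table, with an APOC2 interval that begins at 25.4%. The bars of apolipoproteins, lipases and efflux transporters are at 0.

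None of the 8 apolipoprotein genes was occupied in either table, beside 23.8% (APOC2) and 5.95% (vector) of coding genes. A count of 0 allows a share of up to 37.5% by the limit of 3 counts, and up to 32.4% by the Wilson interval. These 8 genes were APOA1, APOA2, APOB, APOC1, APOC2, APOC3, APOE and APOM, the protein parts of high-density, low-density and triglyceride-rich lipoproteins. The nearest APOC2-table peaks lay between 2418 bp (APOM) and 178734 bp (APOB) from the genes. The peak near APOM sat at C6orf47 and GPANK1 and had a fold enrichment of 6.40. At the APOC2 gene itself the nearest APOC2-table peak was 5778 bp from the gene and the nearest vector peak 5955 bp. The APOE and APOC1 genes of the same cluster were 14423 and 22952 bp from an APOC2-table peak.

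The 4 lipase genes were unoccupied as well, which allows a share of up to 75% by the limit of 3 counts, and up to 49.0% by the Wilson interval. LPL encodes the lipase that APOC2 activates, LIPC the hepatic lipase, and LIPE and PNPLA2 the lipases of stored triglyceride. Their nearest APOC2-table peaks were 121668, 179801, 75753 and 41337 bp away. The cholesterol exporters ABCA1 and ABCG1 had no peak at either end.

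Among the 5 receptors, LRP1 and SCARB1 were occupied and VLDLR, CD36 and GPIHBP1 were not. The APOC2 share was 40% (11.8 to 76.9%), an interval that holds the 23.8% of coding genes. LRP1, an endocytic receptor for remnant lipoproteins, had a pileup of 24.7 with vector and 28 with APOC2. Its fold enrichment over local background was 5.35 and 4.25, because the local background was 3.81 with vector and 5.83 with APOC2. The LRP1 values were thus ordered in opposite ways by pileup and by fold enrichment. SCARB1, the receptor for high-density lipoprotein, had a peak in the APOC2 table alone, with a pileup of 36 and a fold enrichment of 3.37. That peak (chromosome 12, 124863665 to 124863882) covered the higher coordinate of the gene, and was also within 1 kb of an end of LOC105370050. The promoter table gave no strand for SCARB1, so the peak was not assigned to its start or its end. At GPIHBP1, which anchors lipoprotein lipase to capillaries, the nearest APOC2-table peak was 2388 bp outside the gene with a fold enrichment of 3.43.

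Of the 5 sterol-sensing genes, SREBF1 and INSIG2 were occupied (40%, 11.8 to 76.9%, beside 23.8% of coding genes), both in the APOC2 table alone. These were the weakest of the occupied lipid genes by -log10 q, the caller's score for each peak. SREBF1, which encodes the SREBP that favours fatty acid genes, had a pileup of 20 at a fold enrichment of 3.17, and its -log10 q was 3.19. INSIG2 had a pileup of 18 at a fold enrichment of 3.68, and its -log10 q was 3.86. At these pileups the counting intervals were 12.2 to 30.9 and 10.7 to 28.4 fragments. Neither SREBF2, which encodes the SREBP that favours sterol genes, nor INSIG1 was occupied, and their nearest APOC2-table peaks were 163350 and 294248 bp away.

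Cholesterol synthesis enzymes were occupied at 6 of 12 genes in the APOC2 table (50%, 25.4 to 74.6%) and at 3 of 12 in the vector table. The 6 genes stood at separate steps of the pathway. HMGCS1 makes HMG-CoA, MVD and IDI1 make the isoprene units, SQLE oxidises squalene, and CYP51A1 and SC5D modify the sterol rings. MVK, PMVK, FDPS, FDFT1, LSS and DHCR7 had no peak at either end. These 12 genes were picked as a group with earlier results of these tables known, and the background share of 23.8% lies just outside the interval, which covers counting over genes only.

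SQLE, the squalene epoxidase, had the highest fold enrichment in the APOC2 table among peaks within 1 kb of an end of one of the 57 genes. Its pileup was 25.7 with vector and 44 with APOC2, and its fold enrichment 6.46 and 12.7. The APOC2 value was above that of 98.2% of occupied coding genes in that table. Its APOC2 peak was 708 bp long (chromosome 8, 124998480 to 124999187) and the vector peak 376 bp, and a second APOC2-table peak with a fold enrichment of 5.64 lay beside it. Both are also at an end of SQLE-DT, a transcript that runs from the same region. SQLE lies on chromosome 8, and on chromosomes 8 and 9 together 58.8% of coding genes occupied in the APOC2 table were also occupied in the vector table, against 19.6% on the other chromosomes. The part of the chromosome in the SQLE peak was not tested, and SQLE was the only occupied gene among the 6 lipid genes of these chromosomes.

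MVD, which makes isopentenyl diphosphate, had a pileup of 30.7 with vector and 50 with APOC2, with fold enrichments of 3.88 and 7.11. The summits of these peaks were 17 bp apart, 451 and 434 bp before the start. The APOC2 table listed another MVD peak over the start itself, with a pileup of 45 and a fold enrichment of 4.19, for which the vector table had no counterpart. The promoter bases shown above lie between these summits. CYP51A1, the sterol demethylase, had pileups of 23.8 and 34 and fold enrichments of 4.95 and 8.20. Its peak spanned 725 bp with vector and 1139 bp with APOC2. SQLE, MVD and CYP51A1 were therefore each higher in the APOC2 table by pileup and by fold enrichment.

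The other 3 enzymes had peaks in the APOC2 table alone. HMGCS1 had a pileup of 42 (30.3 to 56.8), a -log10 q of 18.3 and a fold enrichment of 6.30. Its peak (chromosome 5, 43313146 to 43313491) covered the start and reached into the bases shown above. IDI1 had a pileup of 26 and a fold enrichment of 4.72, and SC5D had 24 and 4.17. HMGCS1 was thus above the median fold enrichment of occupied coding genes in the APOC2 table, which was 5.41, and IDI1 and SC5D were below it.

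Fatty acid synthesis and elongation genes were occupied at 1 of 8 (12.5%, 2.24 to 47.1%), beside 23.8% of coding genes. This gene was ACACA, with peaks in the APOC2 table alone. ACACA encodes the carboxylase that makes malonyl-CoA. It had a peak on each side of its start, with pileups of 25 and 22 and fold enrichments of 5.03 and 4.46. ACLY, FASN, SCD, ELOVL1, ELOVL5, ELOVL6 and HSD17B12 had no peak at either end.

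Fatty acid activation and oxidation genes were occupied at 4 of 9 in the APOC2 table (44.4%, 18.9 to 73.3%) and at 1 in the vector table. Over all coding genes the shares were 23.8% and 5.95% in these tables, and 23.8% lies within that interval. ACADM, the medium-chain acyl-CoA dehydrogenase, was occupied in both, with pileups of 24.7 and 22 and fold enrichments of 7.43 and 6.58. Its fold enrichment was the highest of the 5 lipid genes in the vector table, where MVD and SQLE had higher pileups. In the APOC2 table alone, ACSL1 had a pileup of 33 and a fold enrichment of 7.07, ACSL3 had 33 and 4.004, and CPT2 had 26 and 4.50. ACSL1 and ACSL3 are ligases that couple fatty acids to coenzyme A, and CPT2 releases them inside mitochondria. ACSL1 and ACSL3 had equal pileups, and their fold enrichments differed through local backgrounds of 3.81 and 7.49. The genes ACSL5, CPT1A and ACADVL, and HADHA and HADHB, which encode the subunits of the trifunctional protein, had no peak at either end.

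Of the 4 nuclear receptor genes only PPARA, the receptor that drives fatty acid oxidation genes, was occupied. This was 25% (4.56 to 69.9%), beside 23.8% of coding genes. The PPARA peak was in the APOC2 table alone, with a pileup of 23 and a fold enrichment of 5.54. PPARG, PPARD and NR1H2, which encodes LXR-beta, were not occupied.

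**Figure D2:**
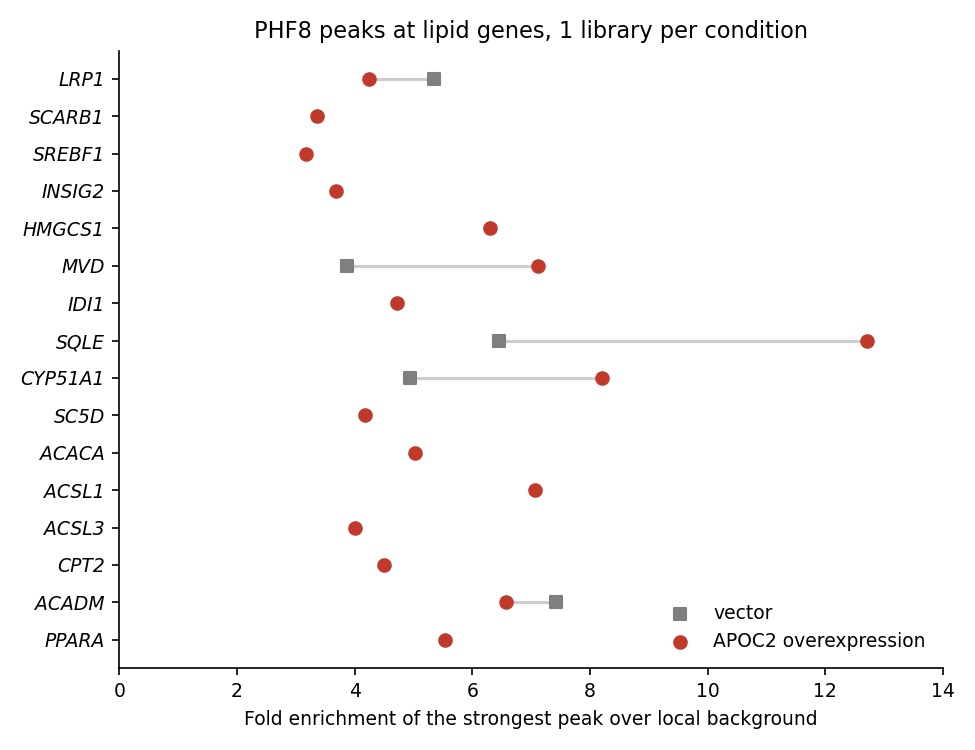
Fold enrichment of the strongest PHF8 peak at each of the 16 occupied lipid genes, in the vector (grey squares) and APOC2 (red circles) libraries, with a line joining genes that had a peak in both. SQLE is the highest point at 12.7, and LRP1 and ACADM are the genes with the vector point to the right.

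Among the 11 lipid genes with a peak in the APOC2 table alone, the fold enrichment ran from 3.17 (SREBF1) to 7.07 (ACSL1) with a median of 4.50. Among the 5 with a peak in both, it ran from 4.25 (LRP1) to 12.7 (SQLE) in the APOC2 table with a median of 7.11. The ranges of these groups overlapped. Over all coding genes the medians were 5.004 for genes in the APOC2 table alone and 7.24 for genes in both, so the lipid genes had the same order. When scaled for depth, on the assumption of a single control, the APOC2 pileups of the 11 genes were 21.6 to 50.4. Of these, 8 were above 28.7, the median pileup of coding genes occupied in the vector table. The same count was not taken over coding genes with a peak in the APOC2 table alone.

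At the 5 genes with peaks in both tables, fold enrichment with APOC2 relative to vector had a log2 ratio of 0.98 at SQLE, 0.88 at MVD, 0.73 at CYP51A1, -0.18 at ACADM and -0.33 at LRP1. The 3 sterol enzymes had ratios above 0, and the receptor and the oxidation enzyme had ratios below 0. The median was 0.73, and over the 1171 coding genes with peaks in both it was 0.52, with quartiles of 0.22 and 0.78. This order turned round under other settings: with gene starts only, which left 4 genes without SQLE, the medians were 0.28 and 0.50, and with a fold enrichment of at least 5, which left 2 genes, they were 0.40 and 0.44. Ratios above 0 were found at 3 of 5 lipid genes and at 89.4% of these coding genes.

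Pileup scaled to the depth of the control gave another picture for ACADM and LRP1. The ratio was 2.05 at SQLE (exact 95% counting interval 1.24 to 3.47), 1.96 at MVD (1.23 to 3.17) and 1.72 at CYP51A1 (0.99 to 3.03). The ratio was 1.36 at LRP1 (0.764 to 2.43) and 1.07 at ACADM (0.574 to 1.97). The intervals of SQLE and MVD lay above 1 and the other 3 included it. For CYP51A1, LRP1 and ACADM a difference was thus not detectable at this depth. SQLE and MVD could not be called changed between conditions either, since the intervals hold no spread between libraries. The ratios also assume a single control for both conditions. By this measure all 5 genes had a ratio above 1, as did 92.1% of the coding genes with peaks in both tables, whose median log2 ratio of 0.56 lay inside the interval of each of the 5. Since a summit is the highest point of a peak, these intervals leave out the choice of the summit.

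**Figure D3:**
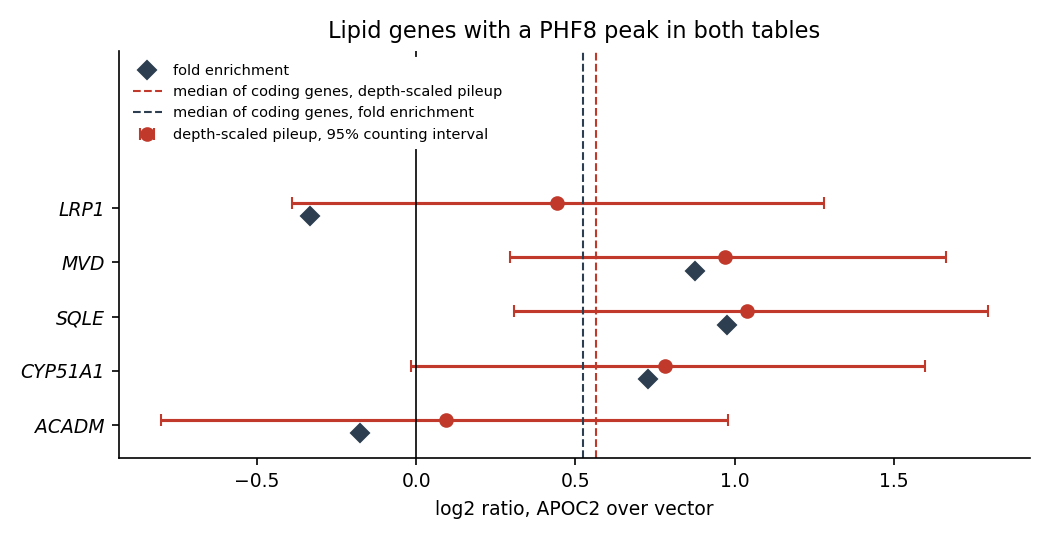
log2 ratio of PHF8 signal, APOC2 over vector, at the 5 lipid genes with a peak in both tables. Red circles are depth-scaled pileups with 95% counting intervals, dark diamonds are fold enrichments, and dashed lines are the medians over 1171 coding genes; ACADM and LRP1 have diamonds left of 0 and circles right of it.

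The peaks lay at gene starts wherever the strand was known. The APOC2 table had 19 peaks at the ends of the 16 occupied genes, of which 16 were at the start, 0 at the end of the gene, and 3, at SCARB1 and SQLE, had no strand in the promoter table. Of the vector peaks 4 were at the start and 1, at SQLE, was unresolved. Over all coding genes with a known strand, 97.5% of such peaks in the APOC2 table were at the start. The summits of the 16 peaks lay between 434 bp before and 412 bp after the nearest annotated start, with a median of 93 bp downstream of it, and 11 of 16 were downstream. Over all coding genes the median was 115 bp and 67.7% were downstream. The strongest MVD peak, the LRP1 and PPARA peaks and one ACACA peak had summits before the start, with SREBF1 farthest downstream. The HMGCS1 summit was before the nearest annotated start as well, but that is an inner start, and the summit lay 117 bp inside the outer start that follows the bases shown above.

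**Figure D4:**
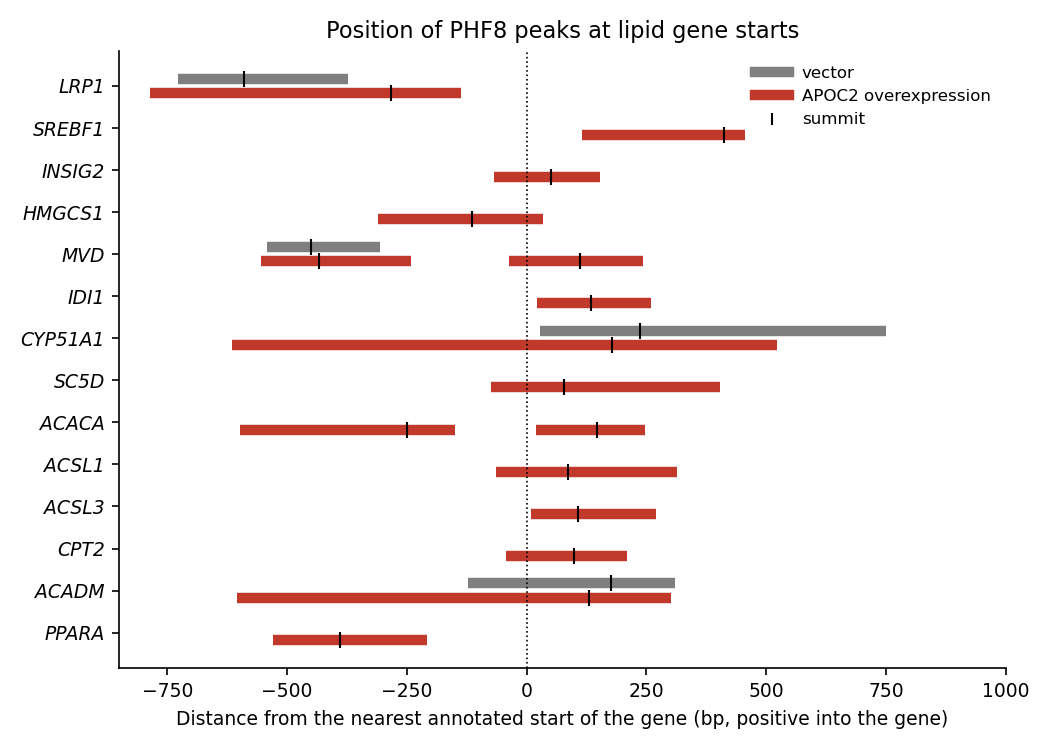
Position of the PHF8 peaks of 14 lipid genes relative to the nearest annotated start (0, dotted line), in bp with positive values into the gene. Bars are the listed peaks of the vector (grey) and APOC2 (red) libraries and ticks their summits; the peaks of MVD at -451 and -434 bp coincide, and those of LRP1 are shifted by 306 bp.

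Many of these peaks could not be given to the lipid gene alone. At 9 of the 16 occupied genes the peak was also within 1 kb of an end of another gene with a RefSeq transcript, and 50.6% of all occupied coding genes shared a peak in this way. ACADM shared its peak with SLC44A5, ACACA with TADA2A, IDI1 with WDR37, CYP51A1 with CYP51A1-AS1 and MVD with SNAI3-AS1. ACSL1 and INSIG2 shared theirs with uncharacterised loci. LRP1, SREBF1, HMGCS1, SC5D, ACSL3, CPT2 and PPARA had peaks with no such neighbour.

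Further APOC2-table peaks lay inside 7 of the lipid genes, over 1 kb from both ends, and the vector table had 0 such peaks. Of all coding genes 3.87% held such a peak in the APOC2 table and 1.04% in the vector table. Gene lengths were not matched in this count. Several of these were at other annotated starts. In ACACA a peak with a pileup of 42 and a fold enrichment of 7.17 (chromosome 17, 37358845 to 37359136) had its summit 87 bp from another start of the gene, and was stronger than both peaks at the outer start. Peaks in IDI1 lay 129 and 67 bp from other starts, with fold enrichments of 5.41 and 5.38. SCAP, the sterol sensor, had a peak with a fold enrichment of 4.36 at 213 bp from its annotated start, and ACADVL, the very-long-chain acyl-CoA dehydrogenase, had a peak with 6.80 at 86 bp from one, which is also at an end of DLG4. Counting peaks at any annotated start would therefore add SCAP and ACADVL to the occupied genes.

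The remaining inside peaks had no annotated start of the promoter table within 1 kb. The peak in HSD17B12, the ketoreductase of fatty acid elongation, had a pileup of 43 and a fold enrichment of 16.7 at 124164 bp from the nearer end of the gene, and the nearest vector peak to an end of the gene was 7046600 bp away. FDFT1, the squalene synthase, had an inside peak with a fold enrichment of 3.52, and SQLE had one with 6.63 at 1073 bp from its start coordinate. HSD17B12, FDFT1 and SQLE were not in the promoter table, so their other starts were not examined. Peaks just outside ACLY (1731 bp), FDPS (3463 bp), DHCR7 (4328 bp) and ELOVL1 (4813 bp) sat at the ends of KLHL11, RUSC1-AS1, NADSYN1 and CDC20. Among occupied genes, MVD had a peak 1012 bp outside its far end, at CYBA, with a fold enrichment of 5.68. This peak fell just beyond the 1 kb window. LRP1 had one 3592 bp outside, at NXPH4, with 6.53.

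CpG content differed between occupied and unoccupied lipid genes. The 14 occupied genes in the promoter table had 18 to 45 CpG in the 250 bases before the start, with a median of 26, and the 32 unoccupied genes had 0 to 41 with a median of 16. Of the 14 genes with under 15 CpG, 0 were occupied, and of the 32 with 15 or more, 14 were. Over all coding genes 10.3% and 35.1% of these classes were occupied in the APOC2 table, so the lipid genes followed the order of coding genes in general. The 5 apolipoprotein genes in the table, APOA2, APOC1, APOC2, APOE and APOM, had 0 to 8 CpG, and the 10 cholesterol synthesis genes had 12 to 33 with a median of 23. Of these 10, the 5 occupied genes held 23 to 33 CpG and the 5 unoccupied genes 12 (DHCR7), 16 (MVK), 21 (FDPS), 22 (PMVK) and 28 (LSS), so LSS alone lay within the range of the occupied genes. Among genes with 20 or more CpG 13 lipid genes were occupied (50%) and 13 were not, beside 36.9% occupied among coding genes with as many. INSIG1 and VLDLR were the richest of the unoccupied lipid genes at 41 each. The part of base composition in the peak calls was not tested.

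**Figure D5:**
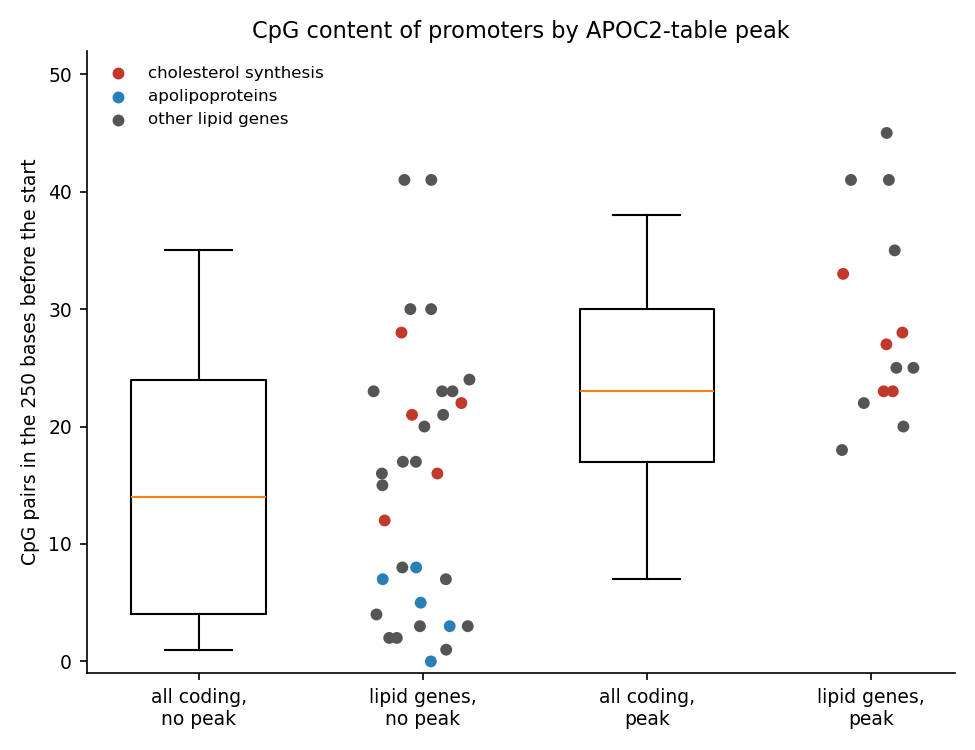
Number of CpG in the 250 bases before the gene start, for coding genes (boxes: quartiles and median, whiskers: the 5th and 95th percentiles) and single lipid genes (points), by whether the gene had a peak in the APOC2 table. All 5 apolipoprotein points (blue) lie at 8 or below among the genes without a peak, and the lipid genes with a peak start at 18.

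Short motifs were searched for in the same bases on both strands. GGGCGG, a GC box that itself holds a CpG, was present at 14 of 14 occupied and 20 of 32 unoccupied lipid genes, and at 55.8% of all coding promoters and 73.7% of those with an APOC2-table peak. CCAAT was present at 5 of 14 and 12 of 32, beside 34.5% of coding promoters, and so did not follow occupancy. CACGTG was present at 1 of 14 and 4 of 32, beside 7.80%. TCACNCCA, a loose form of the sterol response element, was present at 0 of 14 and 5 of 32, namely SREBF2, MVK, APOA2, PNPLA2 and ACADVL, beside 3.03%. The GC box, CACGTG and CpG content overlap in their letters, and a match is a description of the bases only.

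A list of 101 further lipid genes with the same roles was counted in the same way. With APOC2, 37 were occupied (36.6%, 27.9 to 46.4%) and with the vector 6 (5.94%, 2.75 to 12.4%), and all 6 were occupied in both. The APOC2 share was above the 23.8% of coding genes, and the vector share close to the 5.95%. With equal numbers of top peaks the APOC2 count was 12 (11.9%), beside 8.84% of coding genes. The further list, like the 57 genes, was chosen with earlier results of these data known. Fatty acid activation and oxidation genes were occupied at 12 of 27 in the APOC2 table (44.4%, 27.6 to 62.7%). In this role the highest fold enrichments were 7.87 at DECR2, 7.68 at ECI2 and 5.25 at ACOT7. DECR2 and ECI2 handle unsaturated chains, and ACOT7 cleaves acyl-CoA.

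The sterol enzymes of this further list were occupied at 5 of 12 genes (41.7%, 19.3 to 68.0%), in the APOC2 table alone. Of coding genes, 23.8% were occupied in the APOC2 table and 18% in it alone. The highest fold enrichments of these enzymes were at ACAT2 (4.97), HSD17B7 (4.84) and MSMO1 (4.65). All 3 were lower than the values of HMGCS1, MVD, SQLE and CYP51A1 but higher than that of SC5D (4.17). ACAT2 and HSD17B7 were also above IDI1 (4.72), and MSMO1 was below it. Sterol-sensing genes were occupied at 3 of 6 (50%, 18.8 to 81.2%), an interval that also holds 23.8%. MBTPS1 and MBTPS2, the proteases that release SREBP in the Golgi, had 10.8 and 8.26, and AUP1 had 6.41. MBTPS1 also had a vector peak, with 6.59. MBTPS1, MBTPS2 and the SCAP peak described above thus had higher fold enrichments than SREBF1.

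Lipoprotein and transport genes were occupied at 10 of 26 in the APOC2 table (38.5%, 22.4 to 57.5%), beside 23.8% of coding genes. Among them were LMF1 (8.097, and 6.68 in the vector table) and LSR (8.095, with no vector peak). The LSR value rested on a pileup of 14 over a local background of 0.853. LMF1 helps lipases to fold, and LSR is a lipoprotein receptor. The LMF1 peaks lie at the outer start of the gene but at -10899 bp (APOC2) and -10928 bp (vector) from its nearest start in the promoter table, and are also at ends of CEROX1 and SOX8. Fatty acid synthesis and elongation genes were occupied at 5 of 20 (25%, 11.2 to 46.9%). They were led by ELOVL7 (9.49), OXSM (9.44) and SLC25A1 (7.56, and 3.39 in the vector table). The OXSM value rested on a pileup of 17 over a local background of 0.907. Nuclear receptors and partners were occupied at 2 of 10 (20%, 5.67 to 51.0%), RXRA and NCOR1, both with 4.44. The intervals of these 3 roles all hold the 23.8% of coding genes. Peaks of this list were shared as well: DECR2 with NME4, ACAT2 with SOD2, AUP1 with HTRA2, OXSM with NGLY1, SLC25A1 with CLTCL1, and ECI2 and MBTPS1 with their divergent transcripts.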

How the data were processed

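PHF8 ChIP-seq peaks of RKO cells were read from 1 peak table per condition, and groups were taken from the treatment in the labels. The members and lists were chosen with earlier results of these data known. Per the submitters' processing notes, Bowtie2 2.2.9, MACS2 2.0 and HOMER were used with hg38. The control library, thresholds and duplicate removal were not given in the sources used here. Per the file headers, the deposited tables give the pileup signal at each summit and the fold enrichment ratio over local background, to both terms of which 1 is added. The deposited -log10 p and -log10 q columns had lost their names and were identified by position and values.

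All vector pileups were multiples of 0.98953 and all APOC2 pileups were whole; APOC2 backgrounds were spaced by 0.833 (65.1% of those between 1.5 and 30, within 0.01). Depth-scaled pileup divides the APOC2 pileup by this step. For each gene the peak of highest fold enrichment was used. All occupied members were named, and of the further list the 3 highest per role, except for an item that is not reported here. Gene ends, strands and promoters came from RefSeq GRCh38.p14; exons were not used here. Local background was recomputed from pileup and fold enrichment. Shares carry Wilson intervals, pileups exact Poisson intervals and pileup ratios exact conditional binomial intervals. Assignment was tested on simulated data. Python 3.11.15, pandas 2.3.3, numpy 2.4.6 and scipy 1.17.1 were used. Alternatives covered peak thresholds, windows, summits, gene starts, the measure and the pairing of peaks.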

Additional observations from a re-analysis of the deposited data

How the results depend on the processing

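No paired analysis was possible because each condition had 1 library, and leaving out a replicate was not possible for the same reason. Counts were taken as changed beyond a factor of 1.5, and so was the median log2 ratio. Counts by q-value of at most 0.001, by the summit, with a 3 kb window and at gene starts did not change beyond that factor. Neither did those at any annotated start, an alternative chosen after seeing the data. With the 3 kb window, 21 lipid genes were occupied in the APOC2 table and 16 in it alone. These were 36.8% and 28.1%, beside 26.2% and 19.7% of coding genes. The genes gained were ACADVL, ACLY, GPIHBP1, SCAP and the apolipoprotein gene APOM. At any annotated start, ACADVL and SCAP were gained, and SCARB1 and SQLE, absent from the promoter table, were lost. With a fold enrichment of at least 5, lipid genes occupied were 3 in the vector table, 8 in the APOC2 table, 2 in both, 6 in the APOC2 table alone and 1 in the vector table alone, and the further list had 19 in the APOC2 table and 15 in it alone. The lipid shares in the APOC2 table and in it alone were then 14.04% and 10.5%, beside 14.09% and 11.0% of coding genes. The shares of the further list were 18.8% and 14.9%. For the vector table, both and the vector table alone the lipid shares were 5.26%, 3.51% and 1.75%. Those of coding genes were 3.21%, 3.05% and 0.16%. With equal numbers of top peaks, lipid genes numbered 6 in the APOC2 table, 2 in it alone and 1 in the vector table alone. Their shares were 10.5%, 3.51% and 1.75%, beside 8.84%, 4.74% and 1.85% of coding genes. The further list had 12, 7 and 1 (11.9%, 6.93% and 0.99%). When the peak had to overlap the gene start or end, lipid genes numbered 1 (vector), 7 (APOC2), 1 (both) and 6 (APOC2 alone). The further list had 1, 13, 1 and 12. Under this overlap rule the lipid shares were, in the same order, 1.75%, 12.3%, 1.75% and 10.5%. Coding genes had 1.45%, 8.55%, 1.32% and 7.23%, and the further list 0.99%, 12.9%, 0.99% and 11.9%. The median log2 ratio then reversed to -0.18, since ACADM was the only gene left. That median came to 0.40 at fold enrichments from 5 upward (2 genes) and to 0.28 for gene starts only (4 genes). Single genes reversed to 0.18 (LRP1, pileup as listed), 0.44 (LRP1, depth-scaled pileup) and 0.094 (ACADM, depth-scaled pileup). Over all genes with a RefSeq transcript the background shares were 3.65% (vector), 14.4% (APOC2), 3.55% (both) and 10.8% (APOC2 alone). Where no reason is given, the cause was not tested.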
